A study of Mus musculus with 6 samples.

Results

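Collagen genes encode the alpha chains of the collagens, and they were taken here as every row of the protein-coding table whose symbol reads Col, a type number, a and a chain number. The rule found 44 genes among the 22482 genes of the table. Of these, 20 reached at least 0.5 FPKM (fragment numbers divided by transcript length and by library size) in at least 3 of the 6 libraries and were tested, out of 11612 genes tested in all. By textbook type, the tested genes were 8 fibrillar, 4 basement membrane (type IV), 2 FACIT (fibril-associated collagens with interrupted triple helices) and 6 other collagens, out of 11, 6, 9 and 18 genes of these types in the table.

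RNA came from cultured aortic cells of C57BL/6 mice, labelled vascular smooth muscle cells (VSMCs) and grown in medium with 10% serum. Per the labels, 3 libraries (titled ADV) came from cells given an adenovirus meant to knock down Myocd, and 3 libraries (titled Ctrl) from cells given a negative control virus, each for 48 h. The design text names the control cells wildtype, so whether they carried a virus is not certain, and effects of virus and of Myocd then cannot be told apart. The libraries were stranded and made from total RNA after removal of ribosomal RNA, and the labels do not say whether the 3 libraries of a group are separate cultures or animals. The p-values therefore rest on the spread among these 6 libraries, and that spread may be technical.

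Alpha chains wind together into the collagen triple helix after prolines and lysines have been hydroxylated in the endoplasmic reticulum, and secreted molecules are trimmed and cross-linked outside the cell. Fibrillar collagens give the vessel wall its tensile strength, type IV collagens form the sheet of the basement membrane around each smooth muscle cell, and FACIT collagens sit on the surface of fibrils. Smooth muscle cells are the main source of collagen in the media of the aorta, and cells that leave the contractile state are known for making more of it.

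Myocd, the coactivator of serum response factor that drives contractile genes, went against the labels. Its level was 132, 130.1 and 146 FPKM in the libraries labelled knockdown (replicates 1, 2 and 3), against 0.0355, 0 and 0.125 FPKM in the libraries labelled control (limma log2 fold change 9.87, SE 0.27, Benjamini-Hochberg adjusted p = 1.11e-05). The groups are therefore named by their labels throughout, and higher or lower always means in the libraries labelled knockdown, with control as the base. Depth was 7528170 to 9793781 fragments per library over protein-coding genes, lowest in replicate 3 labelled knockdown. The cell type label was only partly met by its markers. Myh11, the smooth muscle myosin heavy chain, lay between 0 and 0.0846 FPKM and Cnn1 between 0 and 0.353 FPKM. Of 8 smooth muscle markers 6 reached 0.5 FPKM in at least 3 libraries. Acta2, Smtn and Des did so in every library. Myocd and Lmod1 reached this level only in the libraries labelled knockdown. Tagln reached it in those and in replicate 3 labelled control (1.65 FPKM). Among markers of other cells, 4 of 6 fibroblast, 3 of 7 macrophage, 2 of 7 mesothelial and 0 of 7 endothelial genes reached 0.5 FPKM in at least 3 libraries. The mesothelial genes Krt19 (225 to 273 FPKM) and Msln (73.1 to 86.9 FPKM) were abundant in every library. The replicate 3 libraries stood apart in both groups for several collagens, which is described after the comparison of the groups.

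Some collagen transcripts were abundant, while 24 of the 44 genes were below the limit for the limma test. By mean FPKM, Col3a1 had the highest level of the 44 genes in both groups, followed in the same order in both by Col6a3, Col1a2, Col6a1, Col18a1 and Col4a1. All 44 genes together took 0.757%, 0.753% and 0.792% of the fragments in the libraries labelled knockdown, against 0.735%, 0.732% and 0.769% in those labelled control, so the groups overlapped. Their mean was 0.767% ± 0.0215 in the libraries labelled knockdown and 0.745% ± 0.0204 in those labelled control (SD, n = 3 each). Within each group replicate 3 had the highest share. Of summed FPKM, which is scaled by transcript length, they took a mean of 0.258% in the libraries labelled knockdown and 0.252% in those labelled control. Fibrillar genes took 0.329% ± 0.0139 of all fragments in the libraries labelled knockdown and 0.330% ± 0.0150 in those labelled control, with overlap. Basement membrane genes took 0.111% ± 0.00402 in the libraries labelled knockdown and 0.104% ± 0.00453 in those labelled control, also with overlap. Their summed FPKM did not overlap, at 149.5 ± 6.61 in the libraries labelled knockdown and 138.1 ± 4.16 in those labelled control. As a share of all summed FPKM, the basement membrane genes again overlapped. By fragments, the shares of the FACIT genes did not overlap, at 0.0402% ± 0.00217 in the libraries labelled knockdown and 0.0355% ± 0.000740 in those labelled control. Their summed FPKM did overlap, at 42.7 ± 1.99 in the libraries labelled knockdown and 40.0 ± 2.73 in those labelled control. The other collagens took 0.287% ± 0.00192 of the fragments in the libraries labelled knockdown and 0.276% ± 0.000363 in those labelled control, without overlap. By FPKM 28.9% of single tested genes had no overlap between the groups, and no such share was taken for sums of genes. In bulk RNA, fewer cells of a type and less RNA per cell cannot be told apart, which holds for every level given here.

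**Figure D1:**
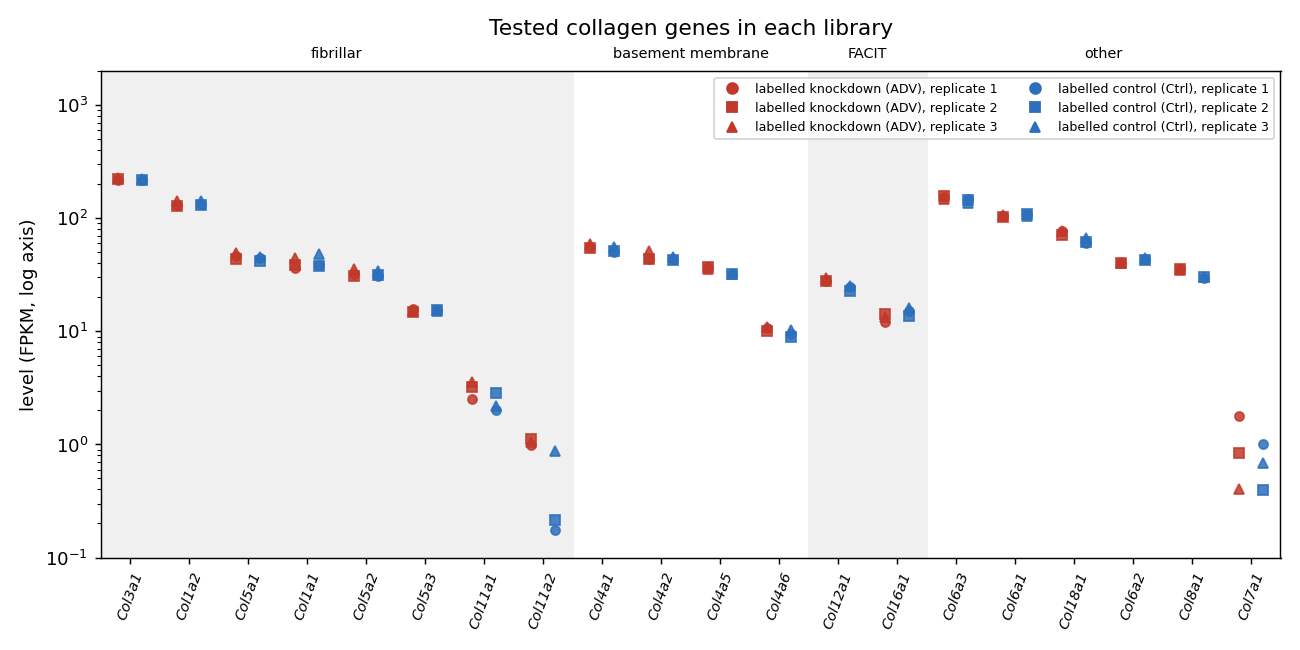
Level of each tested collagen gene in FPKM (log axis), 1 point per library, grouped by type, with the libraries labelled knockdown in red and those labelled control in blue. Col3a1 sits highest in every library, and only Col11a1, Col11a2 and Col7a1 lie below 5 FPKM.

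The 20 tested collagens differed little between the groups. Only Col8a1 passed the test in limma, and it rose 1.17-fold in the libraries labelled knockdown. That is 1 of 20 genes, against 3.44% of all tested genes (400 of 11612, or 44 to 178 genes with a library left out). Of all tested genes 213 were higher (1.83%) and 187 lower (1.61%), or 257 and 148 when libraries were scaled to equal medians. The median log2 fold change of the 20 genes was 0.09, against -0.01 over all tested genes, with 14 values above 0 and 6 below. Over all tested genes 5549 values were above 0 and 6063 below. The range ran from -0.18 (Col16a1) to 1.38 (Col11a2), and 6 of the 20 genes had an unadjusted p under 0.05, against 22.4% of all tested genes. The quasi-likelihood test of edgeR, run on fragments recovered from the deposited count columns, called 6 of 22 collagens (27.3%, against 9.95% of all genes), where Col24a1 and Col15a1 also passed its own filter. Col8a1, Col12a1, Col18a1, Col4a5 and Col6a3 were higher (5.45% of all genes) and Col16a1 was lower (4.50%). DESeq2 on the same fragments called 4 of 22 (18.2%, against 7.10%), namely Col8a1, Col12a1, Col18a1 and Col4a5, all higher (3.84% of all genes were higher and 3.26% lower). By FPKM, the groups did not overlap for 7 of 20 collagens (28.9% of all tested genes). Col11a2, Col12a1, Col18a1, Col4a5, Col6a3 and Col8a1 lay higher (13.3% of all) and Col6a2 lay lower (15.6%) in the libraries labelled knockdown.

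**Figure D2:**
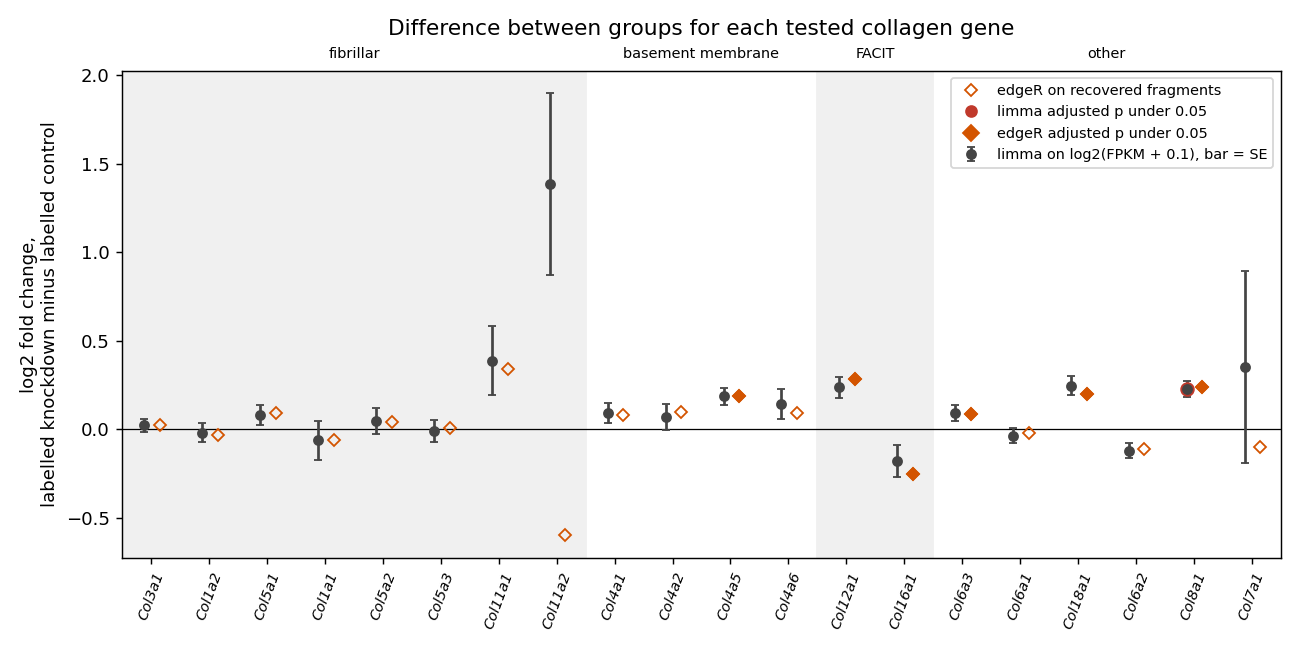
Log2 fold change of each tested collagen gene, libraries labelled knockdown minus those labelled control, from limma on log2(FPKM + 0.1) (dots, bars = SE) and from edgeR on fragments (diamonds). Filled diamonds and the larger red dot (Col8a1, 0.23) have an adjusted p under 0.05. The estimates of the pair of tests part most for Col11a2 (1.38 and -0.60).

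No fibrillar collagen was called by limma, edgeR or DESeq2 with group as the only term. In limma 0 of 8 passed (3.44% of all genes), with 1 at an unadjusted p under 0.05 (22.4% of all). Of 9 genes edgeR and DESeq2 each called 0, also with 1 at an unadjusted p under 0.05 (27.1% of all genes in edgeR and 19.3% in DESeq2). Their median log2 fold change was 0.04.
Col3a1, the chain of type III collagen, which is typical of distensible vessel walls, had 218, 221 and 228 FPKM in the libraries labelled knockdown, against 216, 216 and 224 FPKM in those labelled control (log2 fold change 0.02, SE 0.04, limma adjusted p = 0.751). The groups overlapped, and the sign turned with quantile normalization (-0.01). Type I collagen, the main tensile collagen of the adventitia and media, is made of the products of Col1a1 and Col1a2. Col1a2 had 132, 129 and 143 FPKM in the libraries labelled knockdown, against 134, 132 and 143 FPKM in those labelled control (log2 -0.02, SE 0.05, limma adjusted p = 0.870). Col1a1 had 36.7, 38.3 and 44.3 FPKM in the libraries labelled knockdown, against 38.7, 38.0 and 48.1 FPKM in those labelled control (log2 -0.06, SE 0.11, limma adjusted p = 0.774). In both genes and both groups replicate 3 was the highest library, and the sign of the small difference turned for Col1a2 with libraries scaled to equal medians (0.01).

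Type V collagen chains start fibrils and limit their width. Col5a1 had 46.1, 44.1 and 48.9 FPKM in the libraries labelled knockdown, against 44.5, 41.8 and 45.1 FPKM in those labelled control (log2 0.08, SE 0.06, limma adjusted p = 0.438). Col5a2 had 32.4, 31.1 and 35.9 FPKM in the libraries labelled knockdown, against 30.7, 31.2 and 34.1 FPKM in those labelled control (log2 0.05, SE 0.07, limma adjusted p = 0.725). For both chains the libraries of the groups overlapped and replicate 3 was highest in each group. Col5a3, a further type V chain, differed less still (15.3 ± 0.466 FPKM in the libraries labelled knockdown and 15.4 ± 0.116 FPKM in those labelled control; log2 -0.01, limma adjusted p = 0.953). Its sign depended on the scaling (0.02 with quantile normalization). Col11a1, a type XI chain, had 3.12 ± 0.545 FPKM in the libraries labelled knockdown and 2.35 ± 0.418 FPKM in those labelled control (log2 0.39, SE 0.20, limma adjusted p = 0.291), with overlapping groups.

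The largest fold change of any tested collagen belonged to Col11a2, the other type XI chain, and it was not shared by the fragments. By FPKM it had 0.982, 1.13 and 1.04 in the libraries labelled knockdown, against 0.176, 0.214 and 0.884 in those labelled control (log2 1.38, SE 0.51, limma adjusted p = 0.174). The FPKM values did not overlap, although replicate 3 labelled control came close. The recovered fragments were 9, 12 and 6 in the libraries labelled knockdown, against 11, 12 and 23 in those labelled control, and edgeR gave a log2 fold change of -0.60 (quasi-likelihood adjusted p = 0.405). No direction can be given for this gene, and why the FPKM and fragment values part was not tested.

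The 4 tested basement membrane collagens all had log2 fold changes above 0 (median 0.12), of small size. Of all 11612 tested genes 5549 were above 0. In limma 0 of 4 passed (3.44% of all genes), with 1 at an unadjusted p under 0.05 (22.4% of all). Both edgeR and DESeq2 called 1 of 4, Col4a5, against 9.95% of all genes in edgeR and 7.10% in DESeq2. The products of Col4a1 and Col4a2 form the common type IV network of vessels. Col4a1 had 55.2, 54.1 and 58.8 FPKM in the libraries labelled knockdown, against 50.1, 51.9 and 55.4 FPKM in those labelled control (log2 0.10, SE 0.06, limma adjusted p = 0.364). Col4a2 had 43.3, 43.7 and 51.5 FPKM in the libraries labelled knockdown, against 43.5, 42.9 and 45.1 FPKM in those labelled control (log2 0.07, SE 0.07, limma adjusted p = 0.611). The groups overlapped for both genes, and for Col4a2 the difference rested on replicate 3 labelled knockdown (log2 -0.01 without it). These genes lie head to head on chromosome 8, with RefSeq starts 21 bases apart (GRCm38.p6, positions 11312826 on the minus strand and 11312805 on the plus strand). The deposited table gives them the same locus, 11187755 to 11449287.

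Col4a5 encodes a chain of the type IV network that is found around smooth muscle as well as in the kidney. It had 37.2, 37.0 and 35.6 FPKM in the libraries labelled knockdown, against 32.5, 32.0 and 32.0 FPKM in those labelled control. Every library labelled knockdown lay above every library labelled control, and replicate 3 was no higher than the others. In limma the difference was 0.19 on the log2 scale (SE 0.05, adjusted p = 0.0763), and edgeR called the gene (log2 0.19, quasi-likelihood adjusted p = 0.00690). Col4a6, whose product joins the same network, lies next to Col4a5 on the X chromosome on the opposite strand, with starts 1343 bases apart. It had 10.6 ± 0.519 FPKM in the libraries labelled knockdown and 9.60 ± 0.663 FPKM in those labelled control (SD, n = 3 each; log2 0.14, limma adjusted p = 0.361), and the groups overlapped. The FPKM ratio of Col4a5 to Col4a6 was 3.46 ± 0.231 in the libraries labelled knockdown and 3.36 ± 0.232 in those labelled control, with overlap. That of Col4a1 to Col4a2 was 1.22 ± 0.0688 in the libraries labelled knockdown and 1.20 ± 0.0392 in those labelled control, also with overlap.
The 250 bases before the RefSeq start of Col4a5 (GRCm38.p6, chrX:141475169-141475418, plus strand) are shown because this gene and Col8a1 lay higher in every library labelled knockdown, were called by both count tools and have a single window in the RefSeq table. Capitals mark GGGCGG, the GC box bound by Sp1, 30 bases before the start and CCAAT 196 bases before it.
Col4a5: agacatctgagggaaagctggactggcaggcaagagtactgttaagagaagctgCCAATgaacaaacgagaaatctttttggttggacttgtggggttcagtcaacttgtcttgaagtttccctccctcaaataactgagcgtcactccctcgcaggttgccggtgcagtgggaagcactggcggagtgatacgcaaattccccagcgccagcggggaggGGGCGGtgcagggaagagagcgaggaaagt

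The pair of tested FACIT collagens had differences of opposite sign. In limma 0 of 2 passed (3.44% of all genes), with 1 at an unadjusted p under 0.05 (22.4% of all). The edgeR test called both (9.95% of all genes) and DESeq2 called Col12a1 (7.10%). Col12a1, a long FACIT chain that links fibrils in load-bearing tissue, had 27.7, 28.2 and 29.8 FPKM in the libraries labelled knockdown, against 24.7, 22.9 and 25.1 FPKM in those labelled control. The groups did not overlap. In limma the difference was 0.24 on the log2 scale (SE 0.06, adjusted p = 0.0825), and it was 0.29 in edgeR (quasi-likelihood adjusted p = 0.001002). Col16a1, a FACIT chain found with fibrillin microfibrils and type II fibrils in other tissues, had 12.1, 14.2 and 13.3 FPKM in the libraries labelled knockdown, against 15.1, 13.7 and 16.1 FPKM in those labelled control. These groups overlapped in FPKM. In limma the difference was -0.18 on the log2 scale (SE 0.09, adjusted p = 0.304). The fragments of Col16a1, not scaled to depth, did not overlap, with 470, 490 and 469 in the libraries labelled knockdown against 653, 641 and 629 in those labelled control, and edgeR gave -0.25 (quasi-likelihood adjusted p = 0.0433). That call was made in 1 of the 6 fits that left out a library, the fit without replicate 3 labelled knockdown.

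Among the other collagens, Col8a1 rose and Col18a1 came close to the threshold. Of 6 tested genes 1 passed in limma (3.44% of all genes). The count tools called 3 of 7 in edgeR (9.95% of all) and 2 of 7 in DESeq2 (7.10%). Col8a1 encodes a short-chain network collagen that vascular smooth muscle is known to make during remodelling of the wall. It had 35.5, 35.8 and 34.7 FPKM in the libraries labelled knockdown, against 29.7, 30.1 and 30.5 FPKM in those labelled control. The gap between the groups was wider than the range within either of them. In limma the difference was 0.23 on the log2 scale (SE 0.05, adjusted p = 0.0461). The fragments gave 0.24 (edgeR quasi-likelihood adjusted p = 0.00302). The limma call was lost when any of the 6 libraries was left out (limma adjusted p = 0.0765 to 0.144), while the edgeR call was made in each of those fits, as were those of Col12a1, Col18a1 and Col4a5.
The deposited table places Col8a1 at 57624258 to 57754737 of chromosome 16 (mm10), minus strand. The 250 bases before its RefSeq start (GRCm38.p6, chr16:57754738-57754987, minus strand, written along the gene) hold GGGCGG on the opposite strand at 4 places, 170, 73, 66 and 23 bases before the start, which capitals mark.
Col8a1: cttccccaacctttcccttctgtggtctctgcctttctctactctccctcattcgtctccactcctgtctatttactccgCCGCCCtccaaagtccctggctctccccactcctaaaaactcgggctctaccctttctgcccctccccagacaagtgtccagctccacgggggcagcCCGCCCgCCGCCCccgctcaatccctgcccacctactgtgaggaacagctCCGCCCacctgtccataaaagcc
Across the promoter windows that RefSeq gives for 17 of the 20 tested collagens (19 windows), GGGCGG on either strand was in 14, against 32.7% of all 32851 windows. CCAAT was in 9 (33.8% of all) and TATAA in 3 (22.8%), each searched on both strands. The CArG box, the site of serum response factor, was in 0 of the 19, against 1.47% of all windows. The 32851 windows are not limited to genes tested here, and no share over windows of tested genes was taken. A match describes the letters only, and no match says only that they are not in this window.

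Col18a1 and Col15a1 encode the multiplexins, collagens of vascular basement membranes whose ends can be released as endostatin-like fragments. Col18a1 had 77.1, 71.0 and 76.6 FPKM in the libraries labelled knockdown, against 60.4, 62.1 and 66.6 FPKM in those labelled control (log2 0.25, SE 0.06, limma adjusted p = 0.0614). The groups did not overlap, and edgeR called the gene with a log2 fold change of 0.20 (quasi-likelihood adjusted p = 0.00322). Col15a1 was below the limit for the limma test. It had 0.185, 0.364 and 0.417 FPKM in the libraries labelled knockdown, against 0.235, 0.0650 and 2.79 FPKM in those labelled control. Its fragments were 10, 15 and 19 in the libraries labelled knockdown, against 8, 3 and 20 in those labelled control, so the library with the highest FPKM had hardly more fragments than replicate 3 labelled knockdown.

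Type VI collagen forms beaded microfilaments around cells from the products of Col6a1, Col6a2 and Col6a3, and its chains had differences of both signs. Col6a3 had 154, 156 and 147 FPKM in the libraries labelled knockdown, against 147, 147 and 136 FPKM in those labelled control (log2 0.09, SE 0.05, limma adjusted p = 0.296). The groups were separated by less than 1 FPKM. The edgeR test called it (log2 0.09, quasi-likelihood adjusted p = 0.0313), in 2 of the 6 fits that left out a library, those without a replicate 3 library. Col6a1 had 105 ± 2.81 FPKM in the libraries labelled knockdown and 108 ± 2.41 FPKM in those labelled control (log2 -0.03, limma adjusted p = 0.649), with overlapping groups. Col6a2 had 40.5, 40.3 and 40.5 FPKM in the libraries labelled knockdown, against 43.9, 42.9 and 44.9 FPKM in those labelled control (log2 -0.12, SE 0.04, limma adjusted p = 0.171). By FPKM it was the only tested collagen whose libraries labelled knockdown all lay below those labelled control. The FPKM ratio of Col6a3 to Col6a1 was 1.45 ± 0.0795 in the libraries labelled knockdown and 1.33 ± 0.0317 in those labelled control (SD, n = 3 each), without overlap. That of Col6a1 to Col6a2 was 2.60 ± 0.0649 in the libraries labelled knockdown and 2.45 ± 0.101 in those labelled control, again without overlap. Among single tested genes 28.9% had no overlap between the groups, and no such share was taken for ratios. The type I ratio of Col1a1 to Col1a2 did overlap (0.295 ± 0.0155 in the libraries labelled knockdown and 0.305 ± 0.0280 in those labelled control), as did the type V ratio of Col5a1 to Col5a2 (1.40 ± 0.0331 in the libraries labelled knockdown and 1.37 ± 0.0665 in those labelled control). Col7a1, the chain of anchoring fibrils under epithelia, was low and scattered, with 1.78, 0.845 and 0.400 FPKM in the libraries labelled knockdown, against 1.01, 0.393 and 0.683 FPKM in those labelled control (log2 0.35, SE 0.54, limma adjusted p = 0.735). Its fragments gave the opposite sign (edgeR log2 -0.10, quasi-likelihood adjusted p = 0.807).

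Replicate 3 was the highest library of both groups for 10 of the 20 tested collagens, against 15.9% of all tested genes. These were Col1a1, Col1a2, Col3a1, Col5a1, Col5a2, Col4a1, Col4a2, Col4a6, Col12a1 and Col6a2, and Col6a3 was lowest in replicate 3 of both groups (18.0% of all tested genes). Relative to the mean of replicates 1 and 2 on the log2(FPKM + 0.1) scale, Col1a1 in replicate 3 was higher by 0.24 in the libraries labelled knockdown and by 0.33 in those labelled control. Both values exceed the difference of Col1a1 between the groups. The median over the 20 collagens was 0.05 in the libraries labelled knockdown and 0.07 in those labelled control, while over all tested genes it was -0.01 in the libraries labelled knockdown and -0.00 in those labelled control. Fibrillar genes had a median of 0.13 in the libraries labelled knockdown and 0.08 in those labelled control, and type IV genes one of 0.09 in the libraries labelled knockdown and 0.09 in those labelled control. The medians were 0.06 in the libraries labelled knockdown and 0.12 in those labelled control for FACIT genes, and -0.02 in the libraries labelled knockdown and 0.04 in those labelled control for other collagens. Col8a1 differed little in replicate 3, by -0.04 in the libraries labelled knockdown and 0.03 in those labelled control.

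Col14a1, a FACIT chain typical of fibroblasts, was read only in replicate 3. It had 0, 0 and 30 fragments in the libraries labelled knockdown (0, 0 and 0.634 FPKM), against 0, 0 and 34 fragments in those labelled control (0, 0 and 0.478 FPKM), and a count of 0 allows for 3 fragments at most. In all, 4 genes had 0 fragments in replicates 1 and 2 of both groups and at least 20 in both replicate 3 libraries, namely Col14a1, Postn, Fndc1 and Ptprb. Postn, the matrix protein periostin, which binds collagen, had 0, 0 and 154 fragments in the libraries labelled knockdown and 0, 0 and 154 in those labelled control. Some marker genes were also highest in replicate 3 of both groups. These were 6 of 7 mesothelial, 3 of 6 fibroblast, 3 of 7 endothelial, 4 of 8 smooth muscle and 0 of 7 macrophage genes. The share of 15.9% given above covers tested genes only, while these counts include markers below the test limit. No share for such low genes was taken, so the marker counts have no like base. Many of these markers were near the floor. No endothelial gene exceeded 0.429 FPKM in any library, and the mesothelial genes Upk3b, Lrrn4, Wt1 and Krt8 did not exceed 1.05 FPKM. The fibroblast marker Lum had 0, 0 and 0.233 FPKM in the libraries labelled knockdown, against 0, 0 and 0.141 FPKM in those labelled control. Lum, Dcn and Dpt were the fibroblast markers highest in replicate 3 of both groups. Dcn had 4.64, 4.99 and 7.20 FPKM in the libraries labelled knockdown, against 2.82, 2.66 and 4.38 FPKM in those labelled control. Cd34, the most abundant marker of that list, was instead lowest in replicate 3 of both groups, with 36.7, 34.8 and 30.6 FPKM in the libraries labelled knockdown, against 42.3, 41.3 and 38.2 FPKM in those labelled control. Pdgfra had 16.5, 15.8 and 16.0 FPKM in the libraries labelled knockdown, against 16.4, 17.4 and 14.9 FPKM in those labelled control. Whether other cells in replicate 3 have a part in the collagen levels was not tested. With both replicate 3 libraries left out, limma called 0 collagens and edgeR 7 (Col12a1, Col16a1, Col18a1, Col4a1, Col4a5, Col6a3 and Col8a1).

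**Figure D3:**
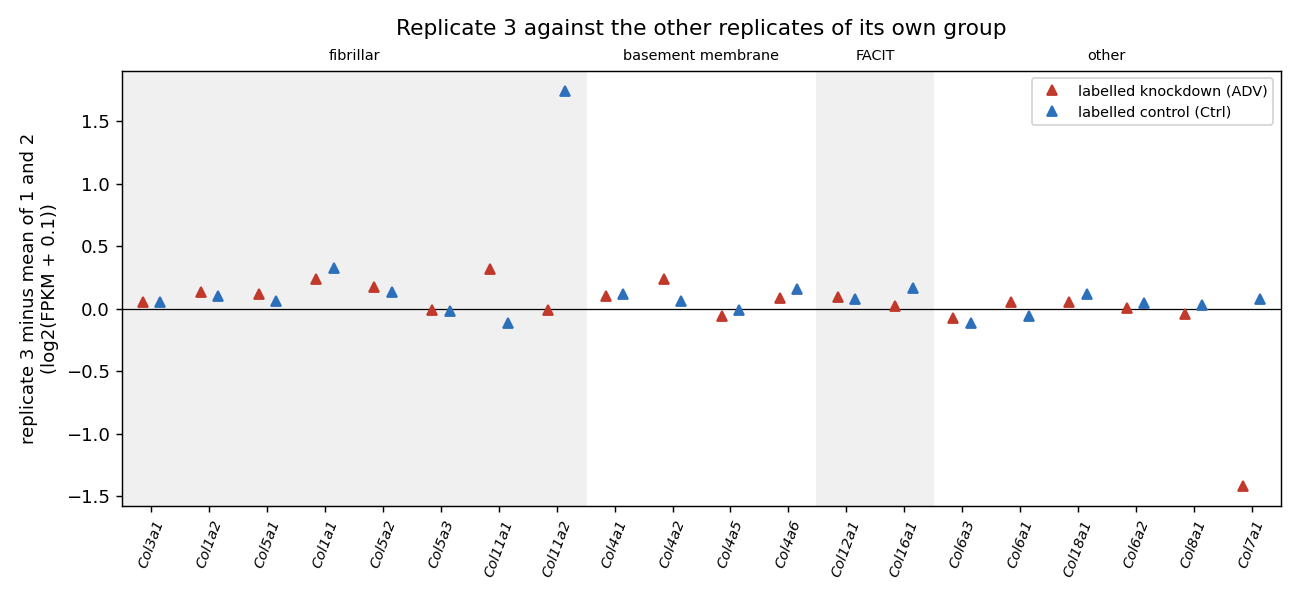
Log2(FPKM + 0.1) of replicate 3 minus the mean of replicates 1 and 2, for each tested collagen gene and within each group (red, libraries labelled knockdown; blue, libraries labelled control). Most fibrillar and type IV genes lie above 0 in both groups, with Col1a1 at 0.24 in the libraries labelled knockdown and 0.33 in those labelled control, and the values far from 0 belong to the low genes Col11a2 and Col7a1.

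Between the groups, summed marker levels did not overlap for the smooth muscle and fibroblast lists. Smooth muscle markers summed to 642 to 684 FPKM in the libraries labelled knockdown, against 222 to 246 FPKM in those labelled control. That sum includes Myocd itself and Acta2. Fibroblast markers summed to 57.0 to 59.5 FPKM in the libraries labelled knockdown, against 60.3 to 63.9 FPKM in those labelled control. Within the fibroblast list Cd34 was lower and Dcn higher in the libraries labelled knockdown, each without overlap (28.9% of all tested genes). Mesothelial markers summed to 302 to 325 FPKM in the libraries labelled knockdown, against 320.1 to 352 FPKM in those labelled control. Macrophage markers summed to 20.6 to 24.5 FPKM in the libraries labelled knockdown, against 22.4 to 26.4 FPKM in those labelled control, with Ptprc and Csf1r at or near 0 in every library. Endothelial markers summed to 0.138 to 0.732 FPKM in the libraries labelled knockdown, against 0.367 to 0.916 FPKM in those labelled control, with Emcn at 0 in every library. The part of these differences in the collagen values was not tested.

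The other 24 collagen genes were below the limit for the limma test. Of these, Col24a1 (log2 -0.32, quasi-likelihood adjusted p = 0.801) and Col15a1 (log2 0.68, adjusted p = 0.466) were tested in edgeR and not called. Of the 24, 6 were listed at 0 in all libraries (Col9a1, Col9a2, Col13a1, Col19a1, Col22a1 and Col26a1) and 18 were above 0 in at least 1 library, with at most 34 fragments. In 15 of the 18 no library had more than 12 fragments. These were the cartilage genes Col2a1, Col9a3, Col10a1 and Col27a1, the type IV genes Col4a3 and Col4a4 of kidney and other specialized membranes, the type VI genes Col6a4, Col6a5 and Col6a6, the transmembrane collagens Col17a1, Col23a1 and Col25a1, and Col8a2, Col20a1 and Col28a1. Col6a4 had 3.07 FPKM in replicate 2 labelled control from 4 fragments, while replicate 2 labelled knockdown had 0.0642 FPKM from 5 fragments. Around the limit of 0.5 FPKM, the third-highest library had 0.454 FPKM for Col24a1 and 0.420 FPKM for Col20a1 just outside, and 0.845 FPKM for Col7a1 and 0.982 FPKM for Col11a2 just inside. Col24a1, a minor fibrillar chain, had 1.16, 1.41 and 0.0785 FPKM in the libraries labelled knockdown, against 0.0318, 0.454 and 0.367 FPKM in those labelled control, while its fragments were 30, 11 and 4 in the libraries labelled knockdown, against 3, 30 and 29 in those labelled control. Its FPKM and its fragments order the libraries differently.

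**Figure D4:**
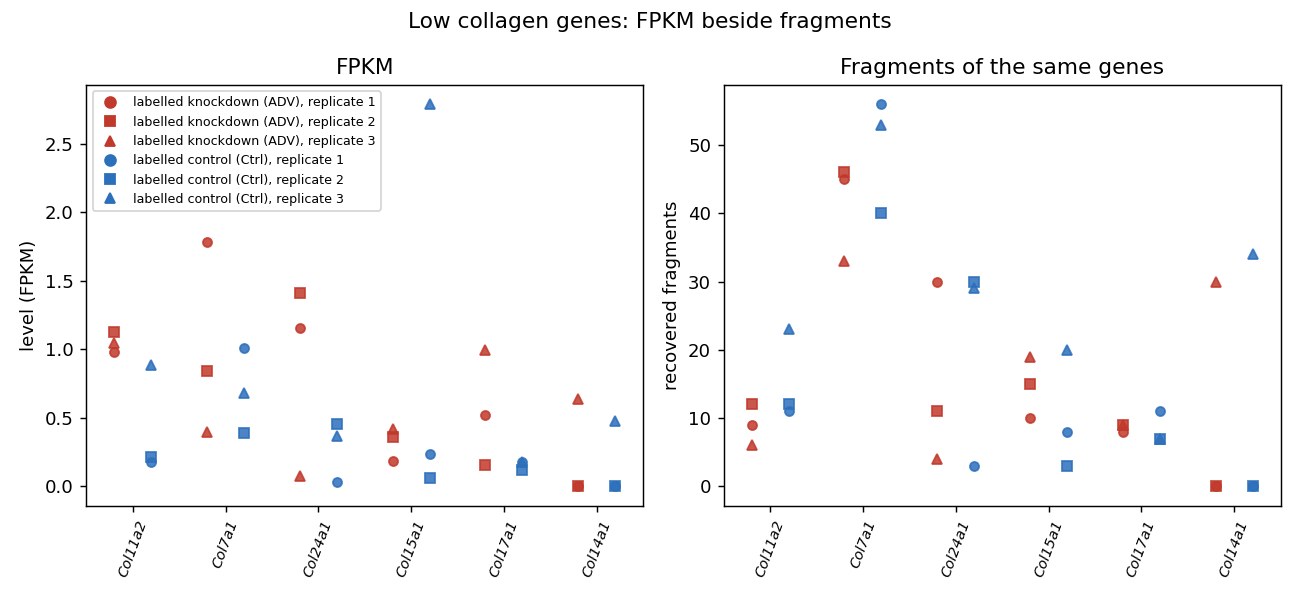
The 6 low collagen genes Col11a2, Col7a1, Col24a1, Col15a1, Col17a1 and Col14a1, with FPKM in each library on the left and recovered fragments on the right (red, libraries labelled knockdown; blue, libraries labelled control). Col11a2 is separated by group in FPKM but not in fragments (9, 12 and 6 in the libraries labelled knockdown against 11, 12 and 23 in those labelled control), and Col14a1 is above 0 only in replicate 3.

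The enzymes and partners that fold, trim, cross-link and bind collagen changed in few members. Of 44 listed genes 37 were tested, and limma called 2 higher, 1 lower and 34 in neither direction (8.11%, against 3.44% of all tested genes). The median log2 fold change was 0.02. With a library left out limma called 1 of them without replicate 3 labelled knockdown and 0 without any of the other libraries. Pcolce2, which enhances the removal of the procollagen C-terminal end, fell to 11.3, 13.0 and 14.8 FPKM in the libraries labelled knockdown, against 21.4, 21.3 and 18.2 FPKM in those labelled control (log2 -0.64, SE 0.12, limma adjusted p = 0.0356), and edgeR also called it (log2 -0.46, quasi-likelihood adjusted p = 0.00227). Crtap, a partner of prolyl 3-hydroxylase in the endoplasmic reticulum, rose to 67.1, 64.1 and 64.9 FPKM in the libraries labelled knockdown, against 55.8, 49.4 and 54.6 FPKM in those labelled control (log2 0.30, SE 0.06, limma adjusted p = 0.0422). Leprel4, a further member of the hydroxylation machinery, rose to 50.9, 40.8 and 53.8 FPKM in the libraries labelled knockdown, against 28.1, 35.4 and 30.0 FPKM in those labelled control (log2 0.63, SE 0.12, limma adjusted p = 0.0424). Neither passed in edgeR on the fragments (Crtap edgeR log2 0.11, quasi-likelihood adjusted p = 0.334; Leprel4 log2 0.21, adjusted p = 0.0701). Mrc2, an endocytic collagen receptor, had the next smallest p among genes with lower values (log2 -0.14, limma adjusted p = 0.264). By edgeR 4 of 39 were called (10.3%, against 9.95% of all genes), Pcolce2 lower and the lysyl hydroxylase genes Plod1 (log2 0.22, quasi-likelihood adjusted p = 0.0461) and Plod2 (0.21, adjusted p = 0.0179) and the lysyl oxidase-like gene Loxl3 (0.42, adjusted p = 3.10e-04) higher.

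Of 21 other basement membrane components 15 were tested, and limma called 0 (3.44% of all tested genes), with 4 at an unadjusted p under 0.05 (22.4%). Of the same 15 genes edgeR and DESeq2 each called 3, against 9.95% of all genes in edgeR and 7.10% in DESeq2. Nid1, which bridges laminin and type IV collagen, had 80.3, 78.2 and 78.1 FPKM in the libraries labelled knockdown, against 72.8, 69.5 and 72.3 FPKM in those labelled control (log2 0.14, SE 0.04, limma adjusted p = 0.106; edgeR quasi-likelihood adjusted p = 0.0130). Nid2, its paralog, had 4.26, 3.46 and 3.92 FPKM in the libraries labelled knockdown, against 5.70, 5.45 and 6.73 FPKM in those labelled control (log2 -0.60, SE 0.13, limma adjusted p = 0.0564; edgeR quasi-likelihood adjusted p = 0.00578). The nidogen genes thus stood on opposite sides, with no overlap between the groups in either (28.9% of all tested genes). Lama2, the laminin chain of muscle, had 25.8 ± 0.567 FPKM in the libraries labelled knockdown and 22.9 ± 0.372 FPKM in those labelled control (log2 0.17, limma adjusted p = 0.121), and edgeR called it (quasi-likelihood adjusted p = 0.00948). Lamb2, a laminin beta chain, had 15.2 ± 0.998 FPKM in the libraries labelled knockdown and 16.5 ± 0.297 FPKM in those labelled control (log2 -0.12, limma adjusted p = 0.369).

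The table of long noncoding RNA pairs 35 transcripts with 23 collagen genes. Of these transcripts 23 were listed at 0 in all libraries and 6 reached 0.1 FPKM in at least 3 libraries, and limma put 1 of the 6 past the threshold, against 4.26% of 4955 transcripts tested. It was the Gm12963 transcript ENSMUST00000147555, which is read away from Col16a1, with 0 fragments in each library labelled knockdown, against 2, 1 and 2 fragments in those labelled control. It reached the limit for testing only through the libraries labelled control, and with no filter limma called 0 paired transcripts. A count of 0 allows up to 3 fragments, so neither a fold nor a difference is read from it. The other Gm12963 transcript had 1, 0 and 1 fragments in the libraries labelled knockdown and 0 in each library labelled control. AK051864, a transcript that overlaps Col8a1 exons on the same strand, had 3.90, 3.84 and 3.25 FPKM in the libraries labelled knockdown, against 3.79, 3.998 and 3.88 FPKM in those labelled control (log2 -0.09, limma adjusted p = 0.806). Its groups overlapped. Fragments of overlapping transcripts may be shared out between them, and the strand setting of the counting is not known here. The antisense transcript 2810430I11Rik at Col5a1 had 0.793, 0.779 and 0.985 FPKM in the libraries labelled knockdown, against 0.969, 0.442 and 0.573 FPKM in those labelled control (log2 0.38, limma adjusted p = 0.666).
Col16a1 and Gm12963 start 66 bases apart on opposite strands of chromosome 4 in RefSeq. The 250 bases before the start of Col16a1 (GRCm38.p6, chr4:130047590-130047839, plus strand) are shown for that reason, and capitals mark the 65 bases between the starts.
Col16a1: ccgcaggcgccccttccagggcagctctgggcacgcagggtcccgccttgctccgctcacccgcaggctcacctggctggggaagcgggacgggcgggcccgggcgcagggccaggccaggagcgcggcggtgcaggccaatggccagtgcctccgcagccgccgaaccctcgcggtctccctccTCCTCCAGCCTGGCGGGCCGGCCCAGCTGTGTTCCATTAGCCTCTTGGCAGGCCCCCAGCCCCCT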

How the data were processed

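Per the submitters' processing notes, the tools were cutadapt, Cufflinks, Cuffdiff 2.2.1 and HISAT2 2.0.4, with mm10 and mm9 both listed as builds. The role of each build, the annotation release and the strand setting were not given in the sources used here. Submitted values are of 2 kinds. The authors deposited FPKM values, scaled by transcript length and library size, for protein-coding genes and for long noncoding transcripts. Per the file headers, each FPKM column has a count column beside it. These deposited columns hold estimated counts multiplied by a constant per library, from 0.916 to 1.20. Dividing by it gave numbers within 0.01 of whole for 89.3% to 90.3% of nonzero mRNA values. Precision follows this depth, and limits from fragment numbers cover counting error only.

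Rows of 79 repeated symbols among 22565 were summed. Coordinates are those of the table with 1 added to the start, with which 6261 genes match a GRCm38 RefSeq start, against 472 without; they are therefore given as mm10. All 44 collagens were matched by symbol in RefSeq.

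The test was the intensity-trend fit of limma 3.58.1 in R 4.3.3, applied to log2(FPKM + 0.1), 3 against 3 libraries, two-sided, with Benjamini-Hochberg adjustment over all genes tested and a threshold of 0.05. This scale understates the change of low genes. Long noncoding transcripts were fitted in the same way from 0.1 FPKM up. edgeR 4.0.16 (quasi-likelihood, TMM, its own filter on low counts) and DESeq2 1.42.0 were alternatives, fitted to rounded recovered fragments; genes to which DESeq2 gave no adjusted p were counted as tested and not called. Others were pseudocounts, filters, scalings, limma options, the replicate number as a block and libraries left out. The fits were tested on simulated data, with changes larger than those of every tested collagen but Col11a2. How well they find changes of the size seen in the other collagens was not tested.

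The collagen genes, their types, the lists and the tests were chosen with earlier results of these data known. Values per library were given for collagens called by limma or edgeR, for 11 genes listed by symbol, for the highest gene of each type, and for the largest log2 fold change of each type in each direction; from the 2 pathway lists, for called genes and the 2 of smallest p in each direction. Col24a1, Col14a1, Col6a4, Dcn, Lum and the long noncoding transcripts were named after their values were seen.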

Additional observations from a re-analysis of the deposited data

How the results depend on the processing

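Main values are those of limma on 0.1-offset FPKM: 1 collagen gene and 400 genes in all, 3 of the biosynthesis list, 0 other basement membrane genes and 1 paired long noncoding transcript. Collagens called were 2 with equal medians, 3 with library weights, 0 without trend, 6 with edgeR, 5 with edgeR and no filter, 4 with DESeq2 and 0 with both replicate 3 libraries left out, and all genes called were 144 without trend, 624 with library weights, 1150 with edgeR, 1168 with edgeR and no filter, 821 with DESeq2 and 76 with both replicate 3 libraries left out. Leaving out each replicate gave 0 collagens and 44 to 178 genes in limma, and 4 to 6 collagens and 533 to 1085 genes in edgeR (618 without replicate 1 labelled knockdown, 915 without replicate 3 labelled control). With both replicate 3 libraries left out edgeR called 7 and 1508; these edgeR fits and edgeR with the block were chosen after seeing the data. The biosynthesis list had 0 called with no filter, 0 without trend, 1 with both replicate 3 libraries left out and 0 to 1 with each replicate left out. The other basement membrane list had 1 called with library weights and 3 with edgeR, edgeR with no filter and DESeq2. Of the long noncoding transcripts paired with a collagen gene limma called 0 with no filter and with both replicate 3 libraries left out. With each replicate left out it called 0 to 1 of them. The FACIT median of log2 fold change was 0.12 with no filter and -0.24 to 0.21 with each replicate left out. The median of other collagens was 0.047 with no filter, 0.092 from 1 FPKM up or with multiplexins moved to basement membrane, 0.085 in edgeR, 0.084 in DESeq2 and -0.037 to 0.24 with each replicate left out; filters and left-out libraries also change which genes enter. Fold changes that turned sign were all of uncalled genes. Col11a2 turned with edgeR (-0.60), edgeR with no filter (-0.61), edgeR with block (-0.56) and DESeq2 (-0.61). Col7a1 turned in the same fits (-0.096, -0.099, -0.091 and -0.098). Col5a3 turned with equal medians (0.016), quantile (0.017), TMM (0.0034), edgeR (0.010), edgeR with no filter (0.0068), DESeq2 (0.0087) and edgeR with block (0.0097). Col1a2 turned with equal medians (0.0063) and Col3a1 with quantile (-0.013). With each replicate left out, signs turned within -0.13 to 0.82 for Col7a1, -0.031 to 0.012 for Col5a3, -0.064 to 0.016 for Col1a2, -0.14 to 0.047 for Col1a1, -0.0098 to 0.11 for Col4a2 and -0.011 to 0.094 for Col5a2. The causes were not tested. Whether the replicate numbers pair the libraries is not settled. Deviations of same-numbered libraries correlated at 0.037, -0.004 and 0.1 (replicates 1, 2 and 3) over tested genes. For different numbers the range was -0.088 to 0.059. Low values over all genes cannot decide this, since only the replicate 3 libraries held fragments of Col14a1, Postn, Fndc1 and Ptprb. With the replicate block limma called 0 collagens, 243 genes, 0 of the biosynthesis list and 0 paired long noncoding transcripts. The edgeR test with the replicate block called 9 collagens and 1715 genes. The collagens gained were Col5a1 (edgeR quasi-likelihood adjusted p = 0.0349), Col4a2 (0.0417) and Col6a2 (0.0493). Col8a1 kept a positive fold change in all alternatives, 0.22 to 0.24 with each replicate left out. Low genes are limited by depth.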
